A study of Mus musculus with 6 samples.

Results

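The genes described here are p53 itself and 9 genes that p53 is known to switch on: Trp53, Mdm2, Cdkn1a, Phlda3, Ccng1, Zmat3, Sesn2, Aen, Perp and Trp53inp1. They were taken by symbol from a table of 29333 genes, in which each of the 10 occurs once. Trp53 and Ccng1 lie on chromosome 11, Mdm2 and Perp on 10, Sesn2 and Trp53inp1 on 4, Phlda3 on 1, Zmat3 on 3, Aen on 7 and Cdkn1a on 17. All 10 passed the filter on low values, a mean normalised read count of at least 10 over the libraries. RNA sequencing was done on whole mouse testes at postnatal day 16, when the most advanced germ cells are pachytene spermatocytes. The knockout samples were labelled as such and are Hsf5-/- by the design text, Hsf5 being the gene for heat shock factor 5, and the controls were labelled wild type. How the allele was made is not given in the labels. Since Hsf5+/- animals may be among them according to the design text, the group is called control here. Of 6 samples in the labels, 4 were analysed: control 1, control 2, knockout 1 and knockout 3. Pairs of values below follow that order. Nothing in the labels says that the samples came from separate animals, so the spread among the 4 samples may be technical. The p-values of the main test rest on that spread and also on a variance trend over all genes.

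p53 is a transcription factor that is made constantly and destroyed quickly, because its target MDM2 is a ubiquitin ligase that marks it for degradation. After DNA damage or other stress the protein is stabilised, so its activity is set mostly by protein level and not by the amount of Trp53 mRNA. Its targets halt the cell cycle, repair DNA, restrain growth signalling or start apoptosis, and in the testis p53 is known for its part in the elimination of damaged germ cells and in spermatogonial responses to radiation.

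The 3 promoter stretches below are shown because p53 binds a 20-base element, and the windows of Ccng1 and Cdkn1a hold a close match to it while that of Mdm2, the clearest change of the group, does not. They are the 250 bases before a RefSeq transcript start, 5′ to 3′ in the direction of the gene, in build GRCm38.p6, with the best 20-base match in capitals. Ccng1 lies at chr11:40755287-40755536 on the minus strand, Cdkn1a (the upstream of its 2 starts) at chr17:29090729-29090978 on the plus strand, and Mdm2 at chr10:117710759-117711008 on the minus strand.
Ccng1: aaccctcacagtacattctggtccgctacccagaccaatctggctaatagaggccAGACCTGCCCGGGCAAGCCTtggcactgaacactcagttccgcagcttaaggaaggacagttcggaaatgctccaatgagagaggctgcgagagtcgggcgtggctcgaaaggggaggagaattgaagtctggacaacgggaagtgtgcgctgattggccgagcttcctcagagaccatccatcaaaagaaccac
Cdkn1a: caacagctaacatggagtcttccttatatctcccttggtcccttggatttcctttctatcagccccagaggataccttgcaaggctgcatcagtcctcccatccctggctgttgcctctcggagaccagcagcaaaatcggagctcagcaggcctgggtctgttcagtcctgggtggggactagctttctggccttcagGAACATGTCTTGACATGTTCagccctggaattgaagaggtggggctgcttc
Mdm2: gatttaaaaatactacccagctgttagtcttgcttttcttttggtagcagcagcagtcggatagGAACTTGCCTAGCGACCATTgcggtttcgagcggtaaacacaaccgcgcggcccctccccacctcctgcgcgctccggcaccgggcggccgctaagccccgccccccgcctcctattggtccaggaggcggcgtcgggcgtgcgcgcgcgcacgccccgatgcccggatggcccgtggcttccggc

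The element searched was the p53 response element by name, 2 abutting copies of its half-site, where a half-site is 3 purines, C, 2 bases that are A or T, G and 3 pyrimidines. The element reads alike on both strands. Windows of 300 bases (250 before and 50 after the start) were found for 7 of the 10 genes, 9 windows in all, and none was matched for Perp, Trp53inp1 and Zmat3. The match in Ccng1 begins 195 bases before the start and that in Cdkn1a begins 51 bases before the upstream start, which is 2841 bases before the downstream start. Each has 1 mismatch to the element, as few as 0.0883% of 32851 promoter windows of the same length have. The best match had 3 mismatches in Trp53 and Aen, as few as 6.29% of windows, and 5 mismatches in Mdm2, Phlda3, Sesn2 and the downstream Cdkn1a window, as few as 76.6% of windows. The p53 sites of Mdm2 are known to lie in its first intron, outside this window. An exact single half-site was found in 6 of the 9 windows, those of Aen, Ccng1, Cdkn1a, Mdm2 and Trp53, and in 8.36% of all windows. The 2 Aen windows overlap and hold the same half-site and the same CCAAT matches (below), so these are counted in both. The heat shock element, to which heat shock factors bind, was searched as GAANNTTC and TTCNNGAA on both strands. The first was in no member window and in 7.86% of all windows, and the second was in 1 member window, of Cdkn1a, and in 8.52% of all. CCAAT was found in 6 of the 9 windows (37.4% of all) and TATAAA in 1, that of Trp53 (13.6% of all). CATG, which can be the core of a p53 half-site and so may overlap it, was in 3, those of Cdkn1a, Phlda3 and Sesn2 (61.1% of all), and TTTGAA in 1, that of Aen (17.9% of all). These matches describe letters in the window and say nothing on binding in these testes.

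The libraries held from 16209093 reads (knockout 3) to 18557898 reads (control 2). Hsf5 itself had a normalised read count of 2541 and 3147 in the controls and 1926 and 1602 in the knockouts, a log2 fold change of -0.69 (adjusted p = 0.00716, limma, Benjamini-Hochberg). Hsf5 reads were thus lower but far from absent in the samples labelled knockout, and a count over the whole gene does not show which part of a transcript they came from. Markers of pachytene spermatocytes fell in 12 of 13 tested members, and their summed normalised count was 46412 and 68898 in the controls against 15409.9 and 12564 in the knockouts. No marker of the 9 cell type lists was at 0 in every library, so RNA of germ and somatic cells was present. In whole testes fewer cells of a type and less RNA per cell cannot be told apart. Markers of early prophase fell in 2 of 12 members. This is 16.7%, close to the 13.5% of all genes tested that were called lower, and is no result about them. Of the pachytene markers tested 92.3% were called lower. Markers of Leydig, peritubular myoid, macrophage, endothelial and epithelial cells had 0 calls by limma, edgeR or DESeq2. At an unadjusted limma p under 0.05 at most 1 gene of each list lay in either direction. The Leydig markers spread widely within groups, with sums of 3222 and 6177 in the controls and 4457 and 3092 in the knockouts. The lack of calls there does not show that these cells were unchanged.

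Trp53 rose. Its normalised read count, reads divided by a size factor of the library, was 1199 and 1105 in the controls against 1466 and 1400.4 in the knockouts. Both knockouts lay above both controls, at 124% of the control mean (1152 ± 66.9 against 1433 ± 46.6, SD, n = 2). This is a log2 fold change of 0.32 with an SE of 0.09, and the adjusted p of 0.0484 (limma, Benjamini-Hochberg) lay just inside the threshold of 0.05 at which a gene is called. Trp53 lost its call without any 1 library (limma adjusted p from 0.0635 without control 1 to 0.25 without knockout 1, 0.206 without control 2 and 0.187 without knockout 3), with edgeR (adjusted p = 0.0509) and with DESeq2 (adjusted p = 0.0807). The authors' deposited table gives it a log2 fold change of 0.32 and an adjusted p of 0.0827.

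Mdm2, both the main brake on p53 and a p53 target, fell. Its normalised count was 3036 and 3318 in the controls against 2258 and 2167 in the knockouts. The knockouts lay below the controls with no overlap and stood at 69.6% of the control mean (3177 ± 199.7 against 2212 ± 64.6, SD, n = 2). The difference was -0.52 on the log2 scale with an SE of 0.08 (adjusted p = 0.00324, limma, Benjamini-Hochberg). Mdm2 was still called whichever library was left out (limma adjusted p from 0.0153 without control 1 to 0.04996 without control 2), and it was also called by edgeR (adjusted p = 0.00487), by DESeq2 (1.28e-05) and in the authors' deposited table (1.32e-05).

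Because Trp53 and Mdm2 were measured in the same libraries, their ratio does not depend on how libraries are scaled. Mdm2 stood at 2.53 and 3.004 times the Trp53 count in the controls, and at 1.54 and 1.55 times in the knockouts. The ratio was thus lower in both knockouts, at a mean of 1.54 ± 0.00509 against 2.77 ± 0.334 (SD, n = 2). Trp53 was higher and Mdm2 lower in both knockouts, so this direction was fixed by their counts and is no further result. No test was run on ratios. Cdkn1a over Trp53 was also lower, at 0.188 and 0.212 against 0.180 and 0.153. The Cdkn1a count itself overlapped, at 225 and 234 against 265 and 214, so this ratio does not show a fall of Cdkn1a. Zmat3 over Trp53 was lower too, at 0.192 and 0.304 against 0.121 and 0.146, which likewise follows from the counts of both genes. How many of all genes have a ratio to Trp53 without overlap was not counted. Ccng1 over Trp53 overlapped, at 0.648 and 0.707 against 0.628 and 0.704.

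Phlda3, a small pleckstrin homology protein that competes with the kinase AKT for membrane lipids and so restrains survival signalling, rose. It had 303 and 287 normalised reads in controls 1 and 2, and 496 and 446 in knockouts 1 and 3. The knockouts reached 160% of the control mean (295 ± 11.9 against 471 ± 35.7, SD, n = 2), the largest proportional difference among the 10 genes. Its log2 fold change of 0.67 had an SE of 0.13 (adjusted p = 0.0108 with limma and Benjamini-Hochberg, 0.0171 with edgeR and 0.00886 with DESeq2). The call was kept without control 1 (limma adjusted p = 0.0483) and lost without control 2 (0.104), knockout 1 (0.111) and knockout 3 (0.0618). In the authors' deposited table its log2 fold change is 0.67 and its adjusted p 0.00911. Relative to Trp53 in the same library, Phlda3 stood at 0.253 and 0.259 in the controls and at 0.338 and 0.318 in the knockouts, so it was higher in the knockouts on that measure too.

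**Figure D1:**
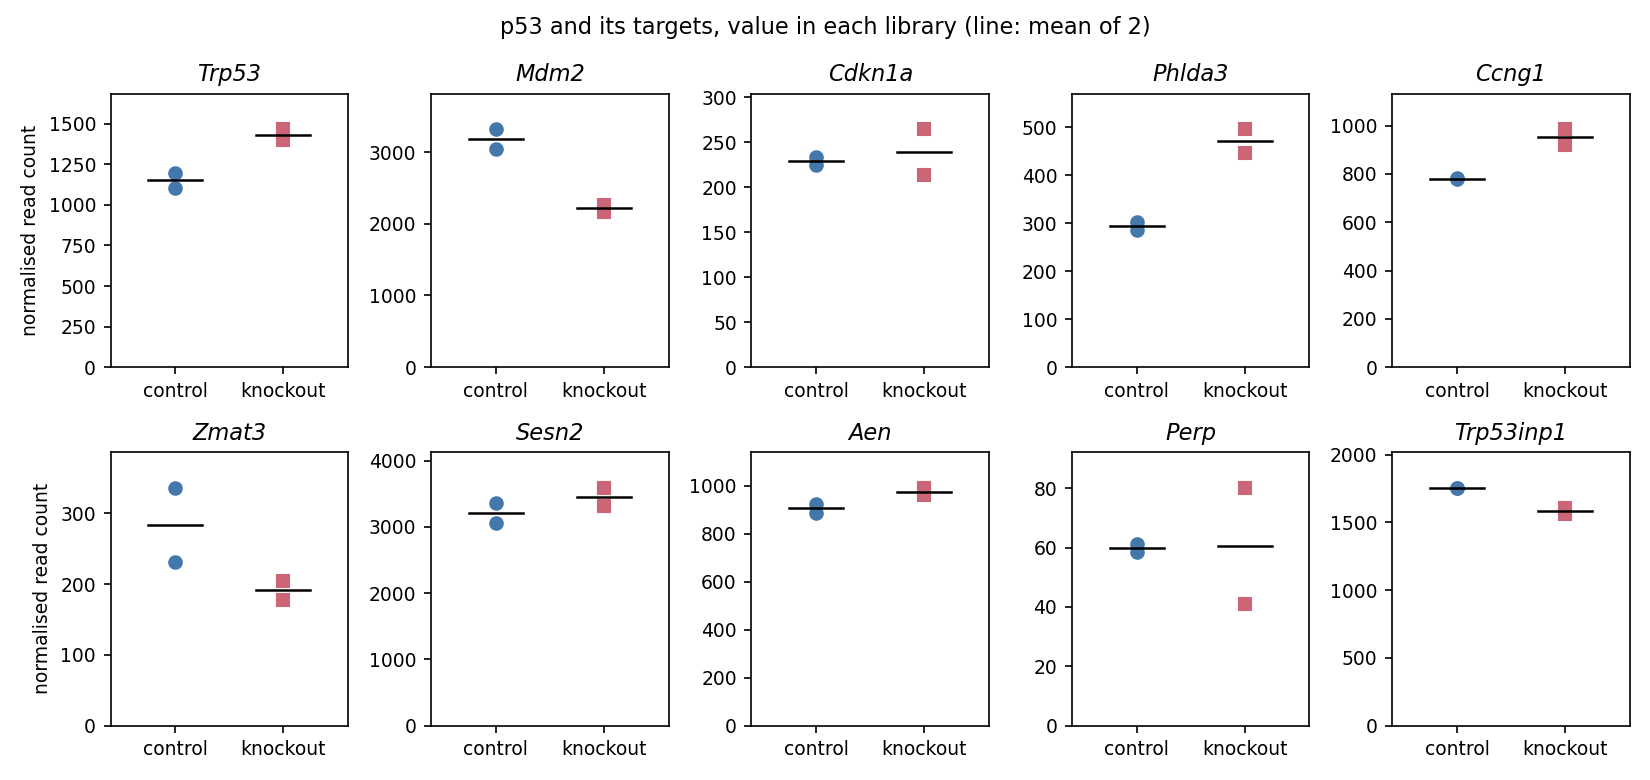
Normalised read count (vertical axis, from 0) of each gene in the 2 control libraries (circles) and the 2 knockout libraries (squares), with each group's mean as a line. Trp53 and Phlda3 are higher and Mdm2 lower in both knockouts, while Cdkn1a, Sesn2 and Perp overlap between groups.

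The genes of cell cycle arrest gave no call. Cdkn1a encodes p21, the inhibitor of cyclin-dependent kinases that carries out p53-dependent arrest. Its normalised count was 225 and 234 in the controls against 265 and 214 in the knockouts, so that the knockouts lay on either side of the controls. The difference was 0.05 on the log2 scale with a 95% interval from -0.34 to 0.44 (limma Benjamini-Hochberg adjusted p = 0.869). Ccng1 encodes cyclin G1, which recruits a phosphatase to MDM2. It had 778 and 781 normalised reads in the controls, which differed very little, and 921 and 985 in knockouts 1 and 3. The groups did not overlap, but the log2 fold change of 0.29 (95% interval 0.065 to 0.51) did not pass the limma test (Benjamini-Hochberg adjusted p = 0.0819). Ccng1 and Cdkn1a, the pair with the close element match shown above, were thus both uncalled. Of the 10 genes 7 were uncalled, and of all 17480 genes tested 14541 were. No link between the element and the changes can therefore be read from this pair. An overlapping gene on the strand opposite to Cdkn1a, AC167363.2, had between 2.05 and 5.95 normalised reads.

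Zmat3 encodes an RNA-binding zinc finger protein that acts on splicing. It had 231 and 336 normalised reads in the controls against 177 and 205 in the knockouts. The controls differed from each other by 0.54 on the log2 scale, about as much as the groups did, with a log2 fold change of -0.545 (95% interval -1.02 to -0.07, limma Benjamini-Hochberg adjusted p = 0.118). It stood at -0.815 when control 1 was left out and at -0.274 when control 2 was, and it was not called in either case (limma adjusted p = 0.0705 and 0.550).

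The stress and metabolism genes moved little. Sesn2 encodes sestrin 2, a leucine sensor that restrains mTORC1. Its normalised count was 3366 and 3056 in the controls against 3592 and 3317 in the knockouts, and the groups overlapped. On the log2 scale it differed by 0.11 (95% interval -0.08 to 0.29, limma Benjamini-Hochberg adjusted p = 0.431). Gm12981, which overlaps Sesn2 on the same strand, had between 5.01 and 11.6 normalised reads. Trp53inp1, a stress protein of autophagy and apoptosis, had 1757 and 1753 normalised reads in the controls and 1563 and 1605 in the knockouts. The groups did not overlap, and the log2 fold change was -0.15 (95% interval -0.33 to 0.04, limma Benjamini-Hochberg adjusted p = 0.256).

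Both effectors of cell death were uncalled. Aen, an exonuclease that helps break down DNA in dying cells, had values of 926 and 887 in the controls and 992 and 959.9 in the knockouts. Its log2 fold change was 0.11 (95% interval -0.11 to 0.32, limma Benjamini-Hochberg adjusted p = 0.493), although the groups did not overlap. Perp, a membrane protein of desmosomes with a part in apoptosis, was the lowest by count and the least certain. It had 63 and 59 reads in the controls against 80 and 40 in the knockouts, before normalisation. The exact 95% Poisson intervals, which cover counting error only, ran from 63.4 to 99.6 for knockout 1 and from 28.6 to 54.5 for knockout 3, so these intervals did not overlap. The log2 fold change of -0.06 carried a 95% interval from -0.875 to 0.758 (limma Benjamini-Hochberg adjusted p = 0.935), so that a difference of either sign was not detectable at this depth and spread.

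**Figure D2:**
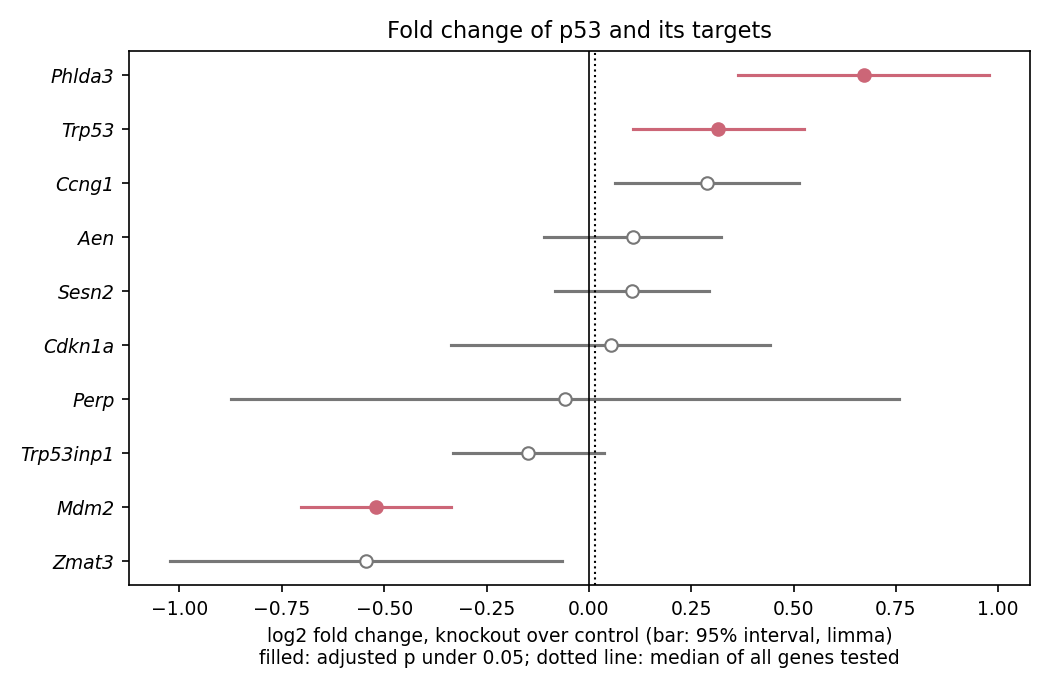
Log2 fold change of knockout over control (horizontal axis) for each gene with its 95% interval, with filled points for a limma adjusted p under 0.05 and a dotted line at the median of all genes tested, 0.015. Of the called genes, Phlda3 and Trp53 lie to the right and Mdm2 (-0.521) to the left. The uncalled Zmat3 (-0.545) lies farthest left, and Perp has the widest interval.

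Across the 10 genes, 2 rose, 1 fell and 7 were not called, with a median log2 fold change of 0.08 against 0.015 for all genes tested. Over all 17480 genes tested 3.28% were called higher and 13.5% lower by limma, 16.8% in either direction. edgeR and DESeq2 each called Phlda3 higher and Mdm2 lower, where they called 2.94% and 2.38% of all genes higher and 12.3% and 11.7% lower, 15.2% and 14.0% in either direction. The authors' deposited table also calls Phlda3 and Mdm2 of the 10, where it calls 2.26% of genes higher and 11.3% lower. The groups did not overlap in 7 of the 10 genes, 4 with the knockouts above and 3 with the controls above, against 61.7% of all genes tested, 29.8% with the knockouts above and 31.9% with the controls above. The share without overlap is close to that of all genes and is no result about these 10.

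Control 1 lay nearer to the knockout mean than control 2 did in 7 of the 10 genes, the 3 called among them. The share of all genes for which this held was not counted, so this is no result about the 10. By a different measure, over all genes tested, the Spearman correlation with knockouts 1 and 3 was 0.973 and 0.969 for control 1. For control 2 it was 0.947 and 0.940. From control 1 to control 2 the log2 value differed by 0.13 in Mdm2, -0.12 in Trp53 and -0.08 in Phlda3, each opposite in sign to the knockout difference. As the groups do not overlap in these 3 genes, this only restates that control 1 lay nearer. The pachytene markers differed between the controls in the same manner, with a median log2 difference of 1.24 for control 2 over control 1 and -3.49 for knockout over control. Sertoli cell markers rose in 4 of 12 members and none fell, with a median of 0.23, and their summed normalised count was 113479 and 107244 in the controls and 134795 and 126681 in the knockouts. Spermatogonial markers rose in 4 of 12 members and fell in 1, with a median of 0.29. Their sums were 17826 and 15509 against 19590.1 and 18816. Over all genes tested 3.28% were called higher and 13.5% lower. The part of these shifts in cell type markers in the changes of Trp53, Mdm2 and Phlda3 was not tested.

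Scaling moved all values together. With libraries scaled to equal totals the median of all genes tested stood at 0.12 and with Sertoli marker scaling at -0.24, and falls made up 57.0% and 99.0% of calls against 80.5% as reported. Relative to the median of all genes, Trp53 stood at 0.30, Mdm2 between -0.536 and -0.534 and Phlda3 at 0.66 under each of the 3 scalings. A scaling shifts every gene and the median alike, so this agreement was fixed in advance and does not bear on the changes. Unadjusted for the median, Sertoli marker scaling left Trp53 at 0.06 and Phlda3 at 0.42, neither called (limma adjusted p = 0.709 and 0.0743), and Mdm2 at -0.775, still called (0.00462). The same scaling turned the sign of Cdkn1a (-0.20), Sesn2 (-0.148) and Aen (-0.147), and equal totals that of Perp (0.05), none of which was called under any scaling. Ccng1 was called higher with equal totals (log2 fold change 0.398, limma adjusted p = 0.0280) and Trp53inp1 lower with Sertoli marker scaling (-0.402, 0.0231).

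**Figure D3:**
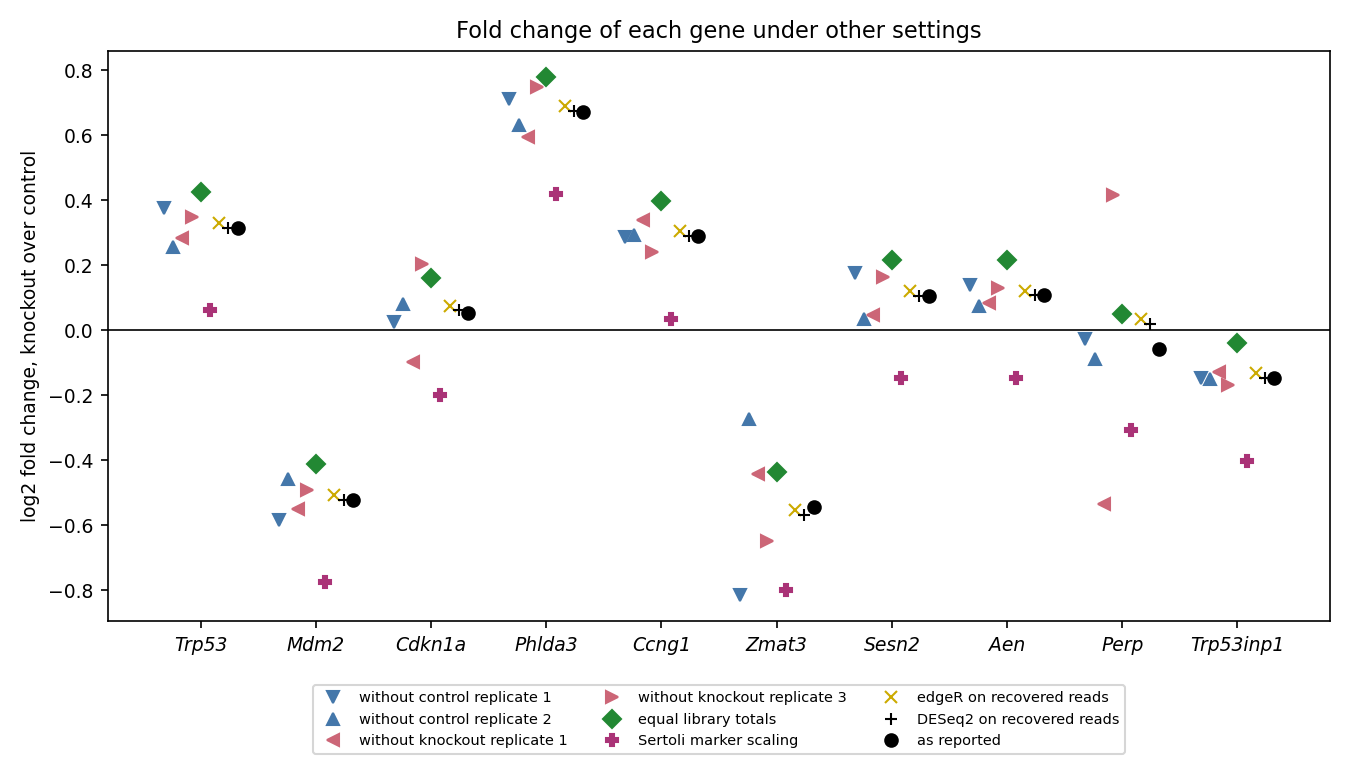
Log2 fold change of knockout over control (vertical axis) of each gene as reported and under other settings: without each library, with other scalings, and with edgeR or DESeq2 on recovered reads. Mdm2, Zmat3 and Trp53inp1 lie below 0 and Trp53, Phlda3 and Ccng1 above 0 in every setting drawn, while Cdkn1a, Sesn2, Aen and Perp change sign.

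Levels can be set against each other only per length, so the normalised count was divided by the merged exon length in kilobases from GENCODE M21, an annotation of an earlier build than the files. On that scale of levels the controls ran from Sesn2 (924 per kb), Mdm2 (625), Trp53 (285), Trp53inp1 (271), Ccng1 (222), Phlda3 (189), Aen (156) and Cdkn1a (64.6) down to Perp (30.6) and Zmat3 (24.8). In the knockouts the same scale gave Sesn2 994, Mdm2 435, Trp53 354, Phlda3 302, Ccng1 271, Trp53inp1 245, Aen 168, Cdkn1a 67.4, Perp 31.0 and Zmat3 16.7. Phlda3 thus stood at rank 6 in the controls and rank 4 in the knockouts. No neighbours in either order overlapped between their 2 libraries, but some gaps were small: in the controls Zmat3 reached 29.4 per kb against 29.97 for the lower Perp library, and Trp53inp1 reached 271 against 273 for the lower Trp53 library.

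The pathway around these genes was then examined through lists of other genes. Among other p53 targets 45 of 48 listed genes were tested, of which 4 rose and 2 fell. That is 13.3% called, below the 16.8% of all genes tested, and their median was 0.10 on the log2 scale, against 0.015 for all genes. By direction, 3.28% of all genes were called higher and 13.5% lower, so this list had more rises and fewer falls than those shares. The rises include genes already known to be high when the list was drawn up. By role, the apoptosis targets had 3 rises and no fall among 13 (median 0.22), and the arrest targets 1 rise and no fall among 8 (median 0.253). The DNA repair targets had 1 fall among 7 (median 0.06), the metabolic targets 1 fall among 10 (median -0.13), and the 7 feedback and signalling targets no call (median 0.17). For that last list limma gave 2 genes higher and 0 lower at an unadjusted p under 0.05, and neither edgeR nor DESeq2 called any. Its most abundant members were Rps27l, a ribosomal protein homologue (log2 fold change 0.17), and Ppm1d, the WIP1 phosphatase that dampens p53 (0.02), neither called.

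The rises were in mediators of cell death and arrest. Bbc3 encodes PUMA, which neutralises BCL2 proteins, and had 75.6 and 69.4 normalised reads in the controls and 143 and 166 in the knockouts, a log2 fold change of 1.08. Tnfrsf12a, the TWEAK receptor, had 298 and 173 in the controls and 513 and 661 in the knockouts, a log2 fold change of 1.36. Btg2, an antiproliferative gene, had 531 and 443 against 794 and 715, a log2 fold change of 0.63 that Sertoli marker scaling brought to 0.38, with no call (limma adjusted p = 0.0764). Siva1, an apoptosis regulator, had 1644 and 1581 against 2258 and 1941, a log2 fold change of 0.38 that Sertoli marker scaling brought to 0.12. Bbc3, Tnfrsf12a and Btg2 were known to be high in these data when the list was drawn up, so they are no independent evidence of its direction.

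The other 10 apoptosis targets were not called, with log2 fold changes from -0.255 in Tnfrsf10b to 0.57 in Fas, both death receptors. Only Tnfrsf10b and Eda2r (-0.021) lay below 0. Over all genes tested 9032 lay above 0 and 8448 below. Bax, the pore-forming effector, had 498 and 477 normalised reads in the controls and 600.3 and 576 in the knockouts, a log2 fold change of 0.27 (95% interval 0.01 to 0.53, limma Benjamini-Hochberg adjusted p = 0.146). Of the falls, Polk, a translesion DNA polymerase, had 467 and 524 normalised reads in the controls and 315 and 344 in the knockouts, a log2 fold change of -0.59. Cpt1c, a carnitine palmitoyltransferase homologue, had 272 and 375 against 204 and 197, a log2 fold change of -0.67. Cpt1c was not called by edgeR (adjusted p = 0.0545), by DESeq2 (0.0515) or by limma with equal library totals (0.0532). Leaving out control 2 or knockout 3 ended the call of all 6 genes (limma adjusted p from 0.0673 to 0.299 and from 0.0512 to 0.211). Without knockout 1 only Tnfrsf12a kept its call, and without control 1 Bbc3, Siva1 and Polk lost it (limma adjusted p from 0.0553 to 0.0959).

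Regulators of p53 had 4 falls and 2 rises among 28 tested, 21.4% called against 16.8% of all genes, with a median log2 fold change of -0.03. Of all genes 13.5% were called lower and 3.28% higher, so the falls were near their share. Ppp1r13l, which encodes iASPP, an inhibitor of p53's proapoptotic activity, fell most. It had 652.5 and 918 normalised reads in the controls against 239.5 and 255 in the knockouts, so that 31.5% of the control mean remained. Its log2 fold change of -1.64 had an SE of 0.17 (adjusted p = 0.000618, limma, Benjamini-Hochberg), and it was called whichever library was left out. The other falls were in Atr, the replication stress kinase (-0.54), Trim28, a corepressor that works with MDM2 (-0.34), and Cop1, another ubiquitin ligase of p53 (-0.32). The rises were in Cdkn2a (0.525), whose locus encodes p19ARF, an inhibitor of MDM2, and also p16INK4a, which a gene count does not separate, and in Huwe1 (0.25), a ubiquitin ligase of p53. The limma call of Huwe1 was lost without any 1 library, as was that of Cdkn2a, and edgeR called neither, while DESeq2 called both. With Sertoli marker scaling Huwe1 turned to -0.004. Without control 2 the calls of Atr, Trim28 and Cop1 were lost as well (limma adjusted p from 0.0682 to 0.335 over the 5 genes). Trim28 also lost its call without control 1 and without knockout 3, and Cop1 without knockout 1 and without knockout 3. Mdm4, the partner of MDM2, had 3324 and 3390 in the controls and 2747 and 3107 in the knockouts, with a log2 fold change of -0.20 and no call (limma Benjamini-Hochberg adjusted p = 0.142). Ppp1r13l, like the pachytene markers, was higher in control 2 than in control 1 (log2 difference 0.49), and the part of those cells in its fall was not tested.

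Paralogs of the 10 genes had 1 rise and 1 fall among 15 tested, 13.3% called against 16.8% of all genes (3.28% higher and 13.5% lower). Sesn3, a relative of Sesn2, had 3295 and 3485 normalised reads in the controls and 2308 and 2289.5 in the knockouts, a log2 fold change of -0.56 (limma Benjamini-Hochberg adjusted p = 0.00156) that was called whichever library was left out. Sesn1, itself a p53 target, had 1442 and 1438 against 1556 in both knockouts (log2 fold change 0.11, limma Benjamini-Hochberg adjusted p = 0.399). Cdkn1b, which encodes p27, a relative of p21, had 874.5 and 956 normalised reads in the controls and 1156 and 1182 in the knockouts, a log2 fold change of 0.35 that Sertoli marker scaling brought to 0.10. Its limma call was lost without any 1 library (adjusted p from 0.0857 to 0.230), and DESeq2 did not call it (adjusted p = 0.0627). Trp63, the p53 relative that guards oocytes, was low, with 80.5 and 81.3 normalised reads in the controls and 71.2 and 111 in the knockouts, and Trp73 lay under the filter.

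Cell cycle genes that p53 is known to lower through p21 and the DREAM repressor complex had 2 rises and 3 falls among 16 tested. This is 31.25% called against 16.8% of all genes (3.28% higher and 13.5% lower), with a median of 0.10. E2f1 (0.49) and Mybl2 (0.43), cell cycle transcription factors, rose, though neither was called with Sertoli marker scaling, and edgeR and DESeq2 called neither Mybl2 nor Birc5. Ccnb2, a mitotic and meiotic cyclin (-0.64), Birc5, of the chromosomal passenger complex (-0.39), and Bub1b, a spindle checkpoint kinase (-0.37), fell. All 5 limma calls were lost without control 2 (adjusted p from 0.103 to 0.162) and without knockout 3 (from 0.0927 to 0.289), all but that of Ccnb2 without control 1, and those of Birc5 and Mybl2 also without knockout 1.

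**Figure D4:**
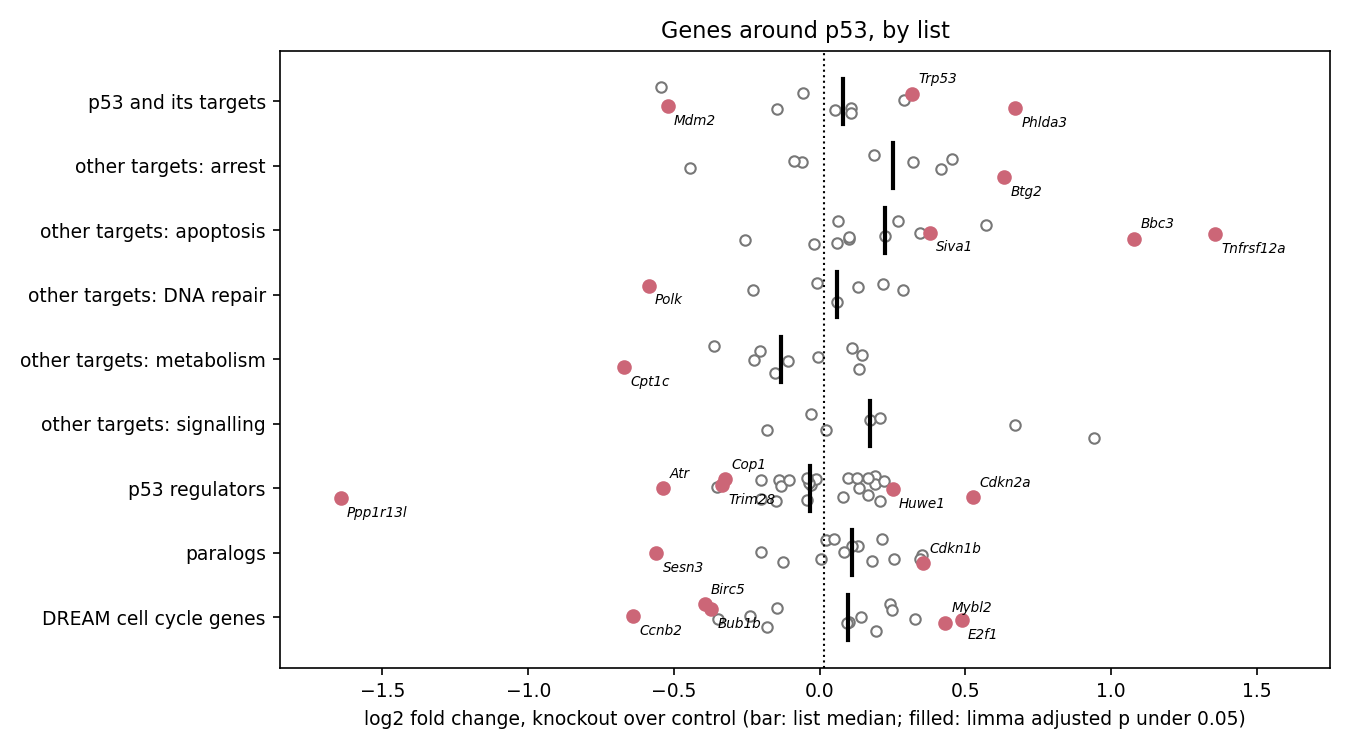
Log2 fold change of knockout over control (horizontal axis) for each tested gene of the 10 and of the other lists, by row, with a bar at the list median, a dotted line at the median of all genes tested and filled, named points for a limma adjusted p under 0.05. Ppp1r13l (-1.64) lies farthest left and Tnfrsf12a (1.36) farthest right.

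The genes whose 4 values ran most like those of Trp53, by the distance between log2 values centred on each gene's mean, were Kif5c, Hhex and Nkap among 14198 named protein-coding genes, with distances of 0.0181, 0.0183 and 0.0222. Nearest to Mdm2 were Snx27, Topors and Rpap3, with distances of 0.0179, 0.0189 and 0.0225. Within a distance of 0.1 there were 358 genes for Trp53 and 140 for Mdm2, so with 4 libraries these patterns are common.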

How the data were processed

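Libraries were made from total RNA of whole testes with an NEBNext Ultra kit, per the labels' protocols. Tools in the submitters' processing notes are cutadapt, Bowtie2, featureCounts and DESeq2, with build mm39. Their versions and settings, and whether strand was used, are not given here, so reads of overlapping genes may be shared. The deposited signal was read as a count over a size factor, since 100% of values were whole multiples of a library's lowest one (tolerance 1e-06). The authors' deposited table adds a log2 fold change with its error, a score (the test statistic) and p-values, raw and adjusted. Knockout 2 and control 3 were not analysed here.

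The main test was limma 3.58.1 (R 4.3.3) applied to log2(value + 1). Variances were drawn to a trend on the mean (6.3 prior and 2 residual degrees of freedom), over the 17480 genes whose mean reached 10. Genes with a Benjamini-Hochberg adjusted p under 0.05 are called, and only those are said to have risen or fallen. The log2(value + 1) scale understates changes of low genes. The design named limma for normalized values, and edgeR 4.0.16 and DESeq2 1.42.0 were run on the recovered reads. The fits were tested on simulated data. Replicates differed by more than counting noise (chi-square over its degrees of freedom 14.7 for controls, 5.03 for knockouts), so none was merged as a library deposited more than once. This does not show that they are separate animals.

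The 10 genes and all lists were chosen with earlier results of these data known. Genes named are the 10, called members of the p53 lists (marker lists are given by counts), the 2 most abundant of a list with no call, genes overlapping the 10, the 3 nearest to Trp53 and to Mdm2 by pattern, and others named after their values were seen. Promoter windows are RefSeq's in GRCm38.p6, with no coordinates mixed with mm39. Alternatives were other pseudocounts, filters, scalings and tools, and each library left out.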

Additional observations from a re-analysis of the deposited data

How the results depend on the processing

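All limma calls rested on few libraries. Leaving out each library in turn gave 31 to 337 higher and 889 to 2096 lower genes in all, 0 to 1 higher and 1 to 1 lower among the 10 genes, and 0 to 2 higher and 0 to 1 lower among the other p53 targets. As reported these were 573 and 2366, 2 and 1, and 4 and 2. Fewest genes were called without control 2 in all (31 higher and 889 lower). The genes tested were kept the same in these fits.

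Without a filter on low values limma called 37 genes higher and 815 lower, 0 higher among the 10 genes, and 0 higher and 0 lower among the other targets. Without the mean-variance trend it called 0 higher and 40 lower, 0 and 0 of the 10, and 0 and 0 of the other targets. At an unadjusted p under 0.05 the fit without the trend had 1456 genes higher and 2827 lower, 3 and 1 of the 10, and 6 and 2 of the other targets. Equal library totals gave 1513 higher in all, and 7 higher and 1 lower of the other targets. Sertoli marker scaling gave 42 higher and 4097 lower in all, 0 higher and 2 lower of the 10, and 2 higher and 4 lower of the other targets. edgeR and DESeq2 each gave 1 higher of the 10 and 1 lower of the other targets. Pseudocounts of 0.5 and 5 and a minimum mean of 50 left every count of these 3 sets within 1.5 times. For single genes of the lists 1292 values kept their side of the threshold, 129 lost a call, 24 gained one and 1 reversed, Huwe1 with Sertoli marker scaling (-0.004). The 1292 include genes that were uncalled as reported and stayed so, while the 129 can come only from called genes. The 1292 therefore do not measure how stable the calls were under these shifts of setting. The cause of the gained and lost calls was not tested. No paired analysis was possible because the analysed libraries of both groups share a single replicate number. At a depth of 40 to 80 reads Perp could not show a small difference.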
